A study of Mus musculus with 12 samples.

Results

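The 3 genes Bmpr2, Skil and Klf10 were taken by name from the 584 genes whose hippocampal RNA the study deposited as read counts and FPKM (fragments per kilobase of exon, scaled to the mapped reads of the library). They stand for 3 levels of transforming growth factor beta (TGF-beta) and bone morphogenetic protein (BMP) signaling, namely a receptor, a repressor of the signal and a target gene. Male C57BL/6 mice were weaned at 3 weeks of age and kept for 5 weeks in a standard cage (SH) or in an enriched environment (EE), a cage with toys, tunnels and hideouts that were rearranged weekly. Total RNA of 3 SH and 3 EE hippocampal samples was sequenced at 8 weeks of age, and mice of both groups were wild type. The treatment field of the labels reads untreated in both groups, while the sample titles call SH libraries ctrl and EE libraries treat. EE cages also held more animals than SH cages, so company and objects cannot be told apart. The sources used here do not give whether 1 library was 1 animal.

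Ligands of this family bind a pair of type II and type I receptors, which are serine/threonine kinases. The type II receptor phosphorylates the type I receptor, the type I receptor phosphorylates SMAD proteins, and SMAD complexes enter the nucleus and regulate transcription. In the hippocampus, BMP signaling is known for holding neural stem cells of the dentate gyrus in quiescence, and activin, another ligand of the family, is known as an activity-induced factor of neurons.

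The rows of the deposited table are the genes that the authors called differentially expressed between EE and SH. Each gene in it had therefore been chosen for the same contrast, and its p-values are no independent evidence of a difference. The reads behind the FPKM values numbered between 31969156 and 53943195 per library, and the 584 genes held between 8.12% and 8.85% of them. The mean FPKM of EE was above that of SH in 246 of the genes and below it in 338. Counts were compared with edgeR's quasi-likelihood test (QL test). A gene was called here when its unadjusted p was under 0.01, the p-value the study set for its own calls. The study also set a threshold on fold change, and its rule had called each of the 584 genes. A gene said below not to pass missed the threshold in the fit here, which used these rows alone. In this fit an unadjusted p under 0.01 called 59.8% of the 584 genes, 19.2% higher and 40.6% lower in EE. Of the calls, 32.1% were higher. With edgeR's TMM factors 81.2%, with DESeq2's size factors 88.9% and with library sizes from the table's counts 7.27% of the calls were higher.

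All 3 genes had a higher mean in EE and no overlap between the groups, and 1 of the 3, Skil, passed the call rule. Skil rose by 16.5% in FPKM, while the mean of Bmpr2 was 11.2% and that of Klf10 21.2% above SH without passing. After Benjamini-Hochberg adjustment the p-values of all 3 were under 0.05, as were those of 99.8% of the table. In the table as a whole, the groups did not overlap in 90.9% of the genes, 37.2% with EE higher and 53.8% with EE lower, so neither count sets the 3 genes apart from the other rows. The order of the levels per exon length was Bmpr2, then Skil, then Klf10 in each of the 6 libraries.

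**Figure D1:**
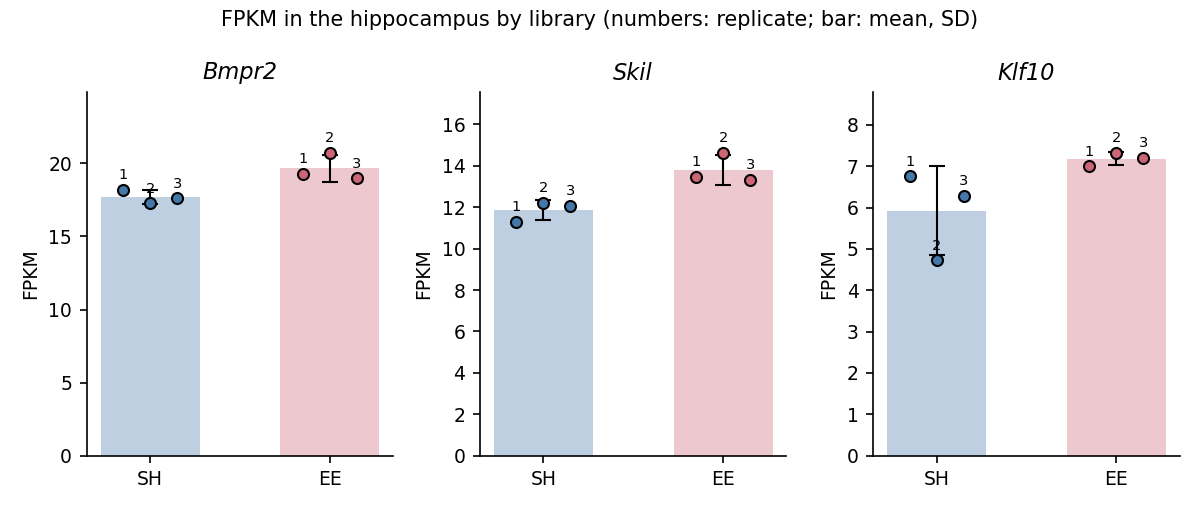
FPKM of Bmpr2, Skil and Klf10 in the 3 SH and 3 EE libraries; points are libraries with their replicate number, bars are means and error bars the SD. Every EE library lies above every SH library in the 3 genes, and SH replicate 2 lies far below the other SH libraries in Klf10.

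Bmpr2 encodes the type II receptor of BMP ligands and lies on chromosome 1 of GRCm38 (59764279 to 59878081, plus strand), with 13 separate exon stretches of 11087 bases in all. Its FPKM was 18.2, 17.3 and 17.6 in SH replicates 1, 2 and 3, and 19.3, 20.7 and 19.0 in EE replicates 1, 2 and 3. All EE libraries were above all SH libraries, by 0.802 FPKM between the nearest ones, and EE replicate 2 stood highest. SH averaged 17.7 ± 0.48 and EE 19.7 ± 0.93 FPKM (SD, n = 3 each). On the log2 scale EE stood 0.15 above SH (standard error 0.05), where edgeR's QL test gave an unadjusted p of 0.011 and an adjusted p of 0.017 (Benjamini-Hochberg, all rows). The unadjusted p missed the call threshold and passed it only in 1 of the 6 fits that left out a library, the one without EE replicate 3 (unadjusted p = 0.0074, edgeR). With a correction for exon GC content the log2 fold change turned to -0.14 and passed as lower in EE (unadjusted p = 0.0053, edgeR), whereas 4 other tests or scalings called Bmpr2 higher, and their values follow with the other settings. The fold change ranked 210 of the 246 genes higher in EE. Bmpr2 was the most deeply counted of the 3 genes, with between 6457 and 11375 reads per library, so counting error was at most 1.24% of a value and below the variation between libraries (2.69% in SH and 4.73% in EE).

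The promoter of Bmpr2 was the only one of the 3 in the promoter sequences used here. It was searched on both strands, from 250 bases before to 50 after the transcription start, for the letters to which SMAD proteins are known to bind. It is shown because SMAD proteins carry the signal of this receptor. The GC-rich SMAD-binding element GGCGCC was present once, 105 bases before the start, at chr1:59764162-59764191 (GRCm38.p6, plus strand, RefSeq), where the capitals mark it.
Bmpr2 promoter: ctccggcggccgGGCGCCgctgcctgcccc
GGCGCC was present in 11.9% of 32851 promoters of the same length, and its presence here is a description of the sequence. The SMAD box CAGAC, held by 49.6% of these promoters, and the palindrome GTCTAGAC, held by 0.213% of them, were not among the letters of this window.

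Skil encodes SnoN, a relative of Ski that binds SMAD proteins and represses the genes they act on. It is itself a known target of TGF-beta signaling and thereby part of a negative feedback. It lies on chromosome 3 of GRCm38 (31095058 to 31122923, plus strand), with 7 exon stretches. Its FPKM was 11.3, 12.2 and 12.1 in SH replicates 1, 2 and 3, and 13.5, 14.6 and 13.3 in EE replicates 1, 2 and 3. The groups were 1.12 FPKM apart at their nearest libraries, and EE replicate 2 was again the highest. Skil rose from 11.9 ± 0.49 (SD, n = 3) to 13.8 ± 0.72 (SD, n = 3), a log2 fold change of 0.22 (standard error 0.05, unadjusted p = 0.0022 and adjusted p = 0.015 by edgeR's QL test). Its fold change ranked 116 of the 246 genes higher in EE. Skil had between 2643 and 5264 reads per library. Its unadjusted p was 0.012 without SH replicate 1, 0.010 without EE replicate 2 and under 0.01 in the 4 other fits that left out 1 library (edgeR). The call was also lost with library sizes from the table's counts (0.16, unadjusted p = 0.030 from edgeR) and with a correction for exon GC content (-0.012, unadjusted p = 0.82 from edgeR).

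Klf10, also called TIEG1, encodes a zinc finger transcription factor named as an early gene induced by TGF-beta, and it lies on chromosome 15 of GRCm38 (38291464 to 38300711, minus strand). Its FPKM was 6.76, 4.72 and 6.29 in SH replicates 1, 2 and 3, and 7.01, 7.33 and 7.21 in EE replicates 1, 2 and 3. SH replicate 2 was the lowest by far, and SH replicate 1 lay 0.242 FPKM below the lowest EE library. The SH libraries varied by 18.0% (coefficient of variation) and the EE libraries by 2.27%, where counting error was at most 3.50% at 818 to 1746 reads per library. SH averaged 5.92 ± 1.07 and EE 7.18 ± 0.16 FPKM (SD, n = 3 each). The log2 fold change was 0.28 (standard error 0.11, unadjusted p = 0.033 and adjusted p = 0.033 by edgeR's QL test), the largest of the 3 genes and the one with the largest error. Without SH replicate 2 it was 0.14 (unadjusted p = 0.084, edgeR), and without SH replicate 1 it was 0.38 (unadjusted p = 0.0032, edgeR). In the annotation the lncRNA Gm35248 runs over the first 1965 bases of Klf10 on the opposite strand. Without strand in the counting, reads of the pair cannot be told apart there. The same limit holds for Acvr1c, Fst, Smoc2 and Bmp1 below, where lncRNAs on the opposite strand also touch exons.

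The libraries were then set side by side to see how far the 3 genes went together. EE replicate 2 was the highest library in each of the 3 genes, at 0.15 (Bmpr2), 0.19 (Skil) and 0.17 (Klf10) above the gene's mean over the 6 libraries on the log2(FPKM + 0.1) scale. Of the 246 genes higher in EE, 38.6% had their highest EE value in that library, 41.5% in EE replicate 1 and 19.9% in EE replicate 3. Among SH libraries the order differed. Bmpr2 and Klf10 were highest in replicate 1 and lowest in replicate 2, whereas Skil was highest in replicate 2 and lowest in replicate 1.

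**Figure D2:**
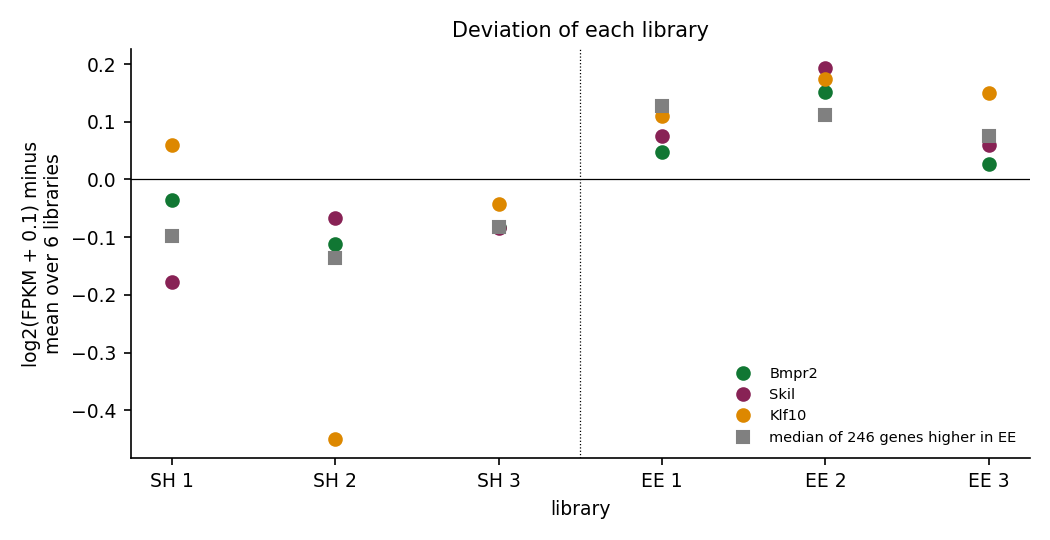
log2(FPKM + 0.1) of each library minus the gene's mean over the 6 libraries, for Bmpr2, Skil and Klf10, with squares for the median over the 246 genes higher in EE. The 3 genes share their highest library, EE replicate 2, and part in SH, where Klf10 falls to -0.45 in replicate 2 and Skil to -0.18 in replicate 1.

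The ratio between genes was also compared, because 1 scaling factor per library cancels in it. A correction for exon GC content does not cancel, since the 3 genes differ in GC content. Skil stood at 0.620, 0.707 and 0.685 of the FPKM of Bmpr2 in SH replicates 1, 2 and 3, and at 0.699, 0.706 and 0.701 in EE replicates 1, 2 and 3. In EE the ratio was nearly the same in the 3 libraries (0.702 ± 0.0036, SD, n = 3), and its values lay inside the range of SH (0.671 ± 0.045, SD, n = 3). Klf10 over Bmpr2 was 0.334 ± 0.053 in SH and 0.365 ± 0.013 in EE, and Klf10 over Skil 0.502 ± 0.107 in SH and 0.520 ± 0.020 in EE (SD, n = 3 each). Exact permutation tests of the 3 log2 ratios, two-sided, gave p = 0.4, 0.5 and 0.9 (adjusted 0.75, 0.75 and 0.9), where 3 libraries against 3 cannot give a p under 0.1. These tests could therefore not pass a threshold of 0.05 whatever the values, and they do not show that the 3 genes changed alike.

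The other genes of the pathway came from a list of 133 genes by role, of which 8 were in the table, the 3 genes above and 5 more. By role, 2 of 15 receptors, 4 of 35 extracellular modulators, 1 of 21 SMAD regulators, 1 of 21 target genes, 0 of 33 ligands and 0 of 8 SMAD genes had a row. These shares were not tested against each other or against all genes. The 125 listed genes without a row were not analysed here. Of the 8 genes, 4 were called higher in EE, 1 was called lower and 3 did not pass, and in all 8 the groups did not overlap. Over all rows, 59.8% of the genes were called (19.2% higher and 40.6% lower) and 90.9% did not overlap, so that neither the 5 calls nor the 8 separations set the listed genes apart from the other rows. The counts moved with the setting, to 1 higher and 2 lower with a correction for GC content, 2 higher with library sizes from the table's counts or without EE replicate 2, and 0 lower with TMM factors, with DESeq2's size factors or without any of SH replicates 1 and 3 and EE replicates 1 and 2. The median log2 fold change of the 8 genes was 0.24, and that of the 5 besides Bmpr2, Skil and Klf10 was 0.26. It was -0.18 over the table, 0.21 over its 246 higher genes and -0.23 over its 338 lower genes. These medians were not tested against each other.

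**Figure D3:**
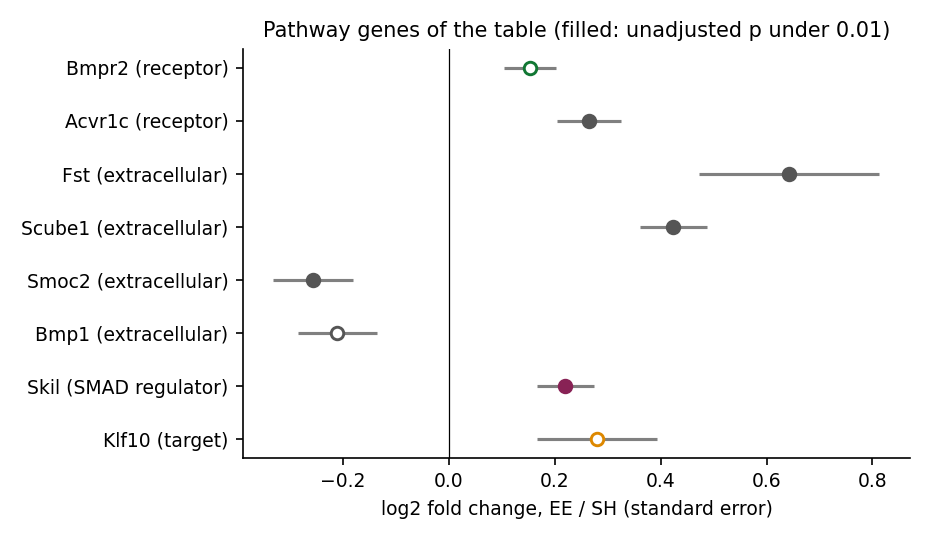
log2 fold change of EE against SH with its standard error for the 8 pathway genes of the table, by role; filled points passed an unadjusted p under 0.01 in edgeR's QL test. Acvr1c, Fst, Scube1 and Skil lie above 0 and Smoc2 below 0 as called genes, and Bmpr2, Klf10 and Bmp1 are open.

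The second receptor was Acvr1c (chromosome 2, 58267453 to 58357896), a type I receptor also called ALK7 that serves activin and Nodal ligands. It had 2.39, 2.41 and 2.49 FPKM in SH and 2.88, 2.90 and 2.98 in EE replicates 1, 2 and 3, a narrow spread in both groups. It rose by 0.26 on the log2 scale (standard error 0.06, unadjusted p = 0.0014 from edgeR) and was under 0.01 in 6 of the 6 fits that left out 1 library. Its call was lost with library sizes from the table's counts (0.21, unadjusted p = 0.018 from edgeR) and with the GC correction, where it was at 0.04 (unadjusted p = 0.56, edgeR). Fst (chromosome 13, 114452262 to 114458989) encodes follistatin, the secreted antagonist of activin. It was low, with 0.547, 0.670 and 0.555 FPKM in SH and 0.848, 1.07 and 0.855 in EE, and with 50 to 132 reads per library. Its log2 fold change of 0.64 (standard error 0.17, unadjusted p = 0.0036 from edgeR) was the largest of the 8 in this fit. With limma on log2(FPKM + 1) it was 0.27 (unadjusted p = 0.0018), below the 0.34 of Scube1. In edgeR it passed in 3 of the 6 fits that left out 1 library, with an unadjusted p of 0.014 without EE replicate 2, 0.011 without SH replicate 1 and 0.014 without SH replicate 3 (edgeR). It also lost its call with DESeq2 on the total reads (0.65, unadjusted p = 0.011).

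Scube1 (chromosome 15, 83602583 to 83725051), a gene for a secreted and membrane-bound protein with EGF-like repeats, rose from 3.33 ± 0.18 to 4.46 ± 0.09 FPKM (SD, n = 3), or by 0.42 on the log2 scale (unadjusted p = 5.6e-05, edgeR). Smoc2 (chromosome 17, 14279490 to 14404790), a calcium-binding matrix protein gene, fell from 8.97 ± 0.34 to 7.50 ± 0.56 FPKM (SD, n = 3), and its log2 fold change was -0.26 (unadjusted p = 0.0063, edgeR). Smoc2 passed in 2 of the 6 fits that left out 1 library, those without SH replicate 2 and without EE replicate 3. Its call was also lost with TMM factors (-0.18, unadjusted p = 0.024 from edgeR) and with DESeq2's size factors (-0.15, unadjusted p = 0.073). Bmp1 (chromosome 14, 70474555 to 70520716), which despite its name is a protease that processes procollagen and chordin, had 7.41 ± 0.29 in SH and 6.39 ± 0.56 in EE (SD, n = 3) and did not pass (unadjusted p = 0.017, edgeR) unless EE replicate 3 was left out (unadjusted p = 0.0023, edgeR). Both receptors, the antagonist of activin and Scube1 thus had higher means in EE, and Smoc2 and Bmp1 lower ones. Acvr1c, Fst, Scube1, Smoc2 and Bmp1 kept their direction under each alternative that was run for them, although Acvr1c and Bmp1 came near 0 under the GC correction described next, where Bmpr2 and Skil turned below 0.

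Exon GC content went with the direction of the whole table. Genes higher in EE had a median exon GC content of 43.9% (quartiles 41.0% and 48.4%, 242 genes), and genes lower in EE one of 56.8% (quartiles 53.2% and 59.2%, 333 genes). Bmpr2 had 38.4%, Skil 41.1% and Klf10 48.4%. Bmpr2 thus lay below the lower quartile of the higher genes, Skil next to it and Klf10 at the upper one. Over 562 genes outside the pathway list, the slope of log2 expression on GC content was between 0.09 and 0.14 per 10 percentage points in the SH libraries, and between -0.15 and -0.06 in the EE libraries. It was lowest, at -0.15, in EE replicate 2, where the 3 genes were highest, and highest, at 0.14, in SH replicate 2, where Bmpr2 and Klf10 were lowest but Skil was the highest of the SH libraries. With this slope removed from each library, the log2 fold change of Bmpr2 was -0.14, that of Skil was -0.012 (unadjusted p = 0.82) and that of Klf10 was 0.21 (unadjusted p = 0.075). The slope came from genes selected for EE against SH, so that removing it also removes any EE difference that goes with GC content in them. Under the same correction, besides Acvr1c (above), Fst was at 0.53 (unadjusted p = 0.013), Scube1, with 55.7% GC, at 0.52 (unadjusted p = 2.9e-06), Smoc2 at -0.25 (unadjusted p = 0.0050) and Bmp1 at -0.048 (unadjusted p = 0.45) on the log2 scale (edgeR).

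**Figure D4:**
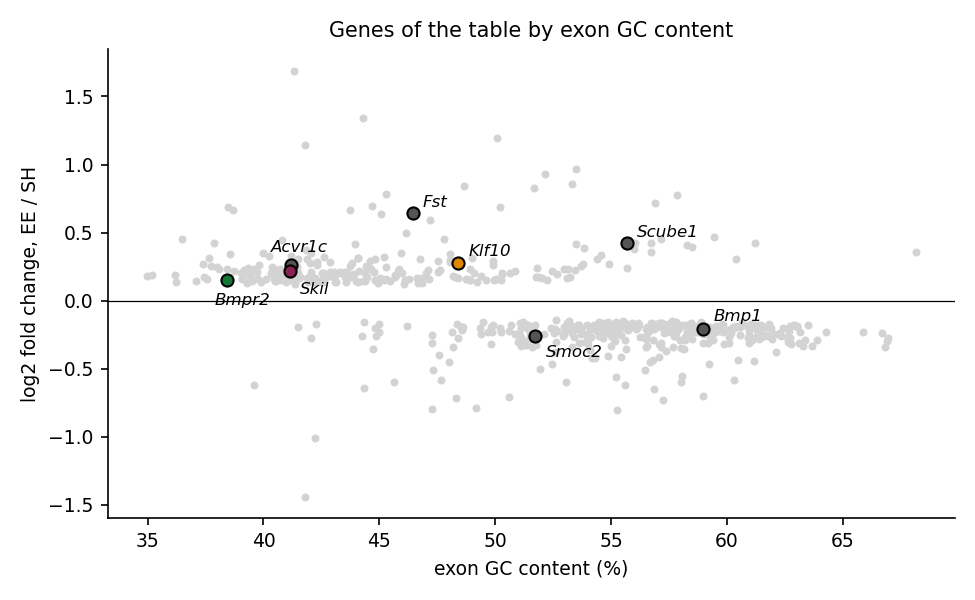
log2 fold change of EE against SH against exon GC content in percent for the genes of the table with a GC value, mitochondrial genes left out; the pathway genes are named. Genes above 0 gather at low and genes below 0 at high GC content, Bmpr2 and Skil sit at 38.4% and 41.1%, and Scube1 stands among the genes with high GC content at 0.42.

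The log2 fold changes of the 3 genes were then compared over all settings. Bmpr2 and Skil were above 0 in each setting but the GC correction, and Klf10 was above 0 in each one. Bmpr2 passed the call threshold with DESeq2 on the total reads (0.15, unadjusted p = 0.0067), with edgeR's likelihood ratio test (0.15, unadjusted p = 0.0086), with TMM factors (0.23, unadjusted p = 0.0023) and with DESeq2's own size factors (0.26, unadjusted p = 9.5e-05), in each case as higher in EE. With the GC correction it passed as lower (-0.14, unadjusted p = 0.0053 from edgeR). TMM and DESeq2's size factors assume that most genes do not differ between groups, whereas this table holds selected genes only.

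**Figure D5:**
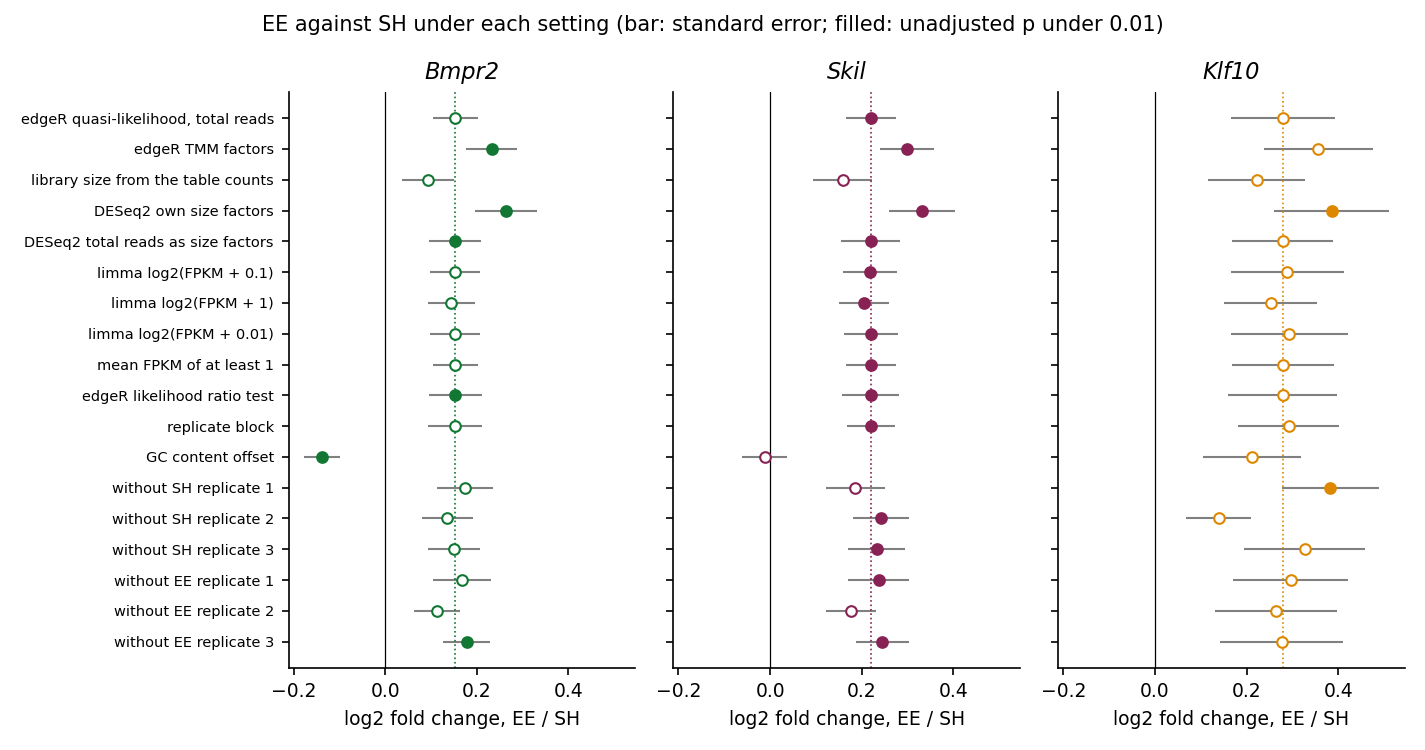
log2 fold change of EE against SH with its standard error for Bmpr2, Skil and Klf10 under each test, scaling, filter and left-out library; filled points passed an unadjusted p under 0.01. Only the GC correction puts Bmpr2 (-0.14) and Skil (-0.012) below 0, and the open points of Klf10 run from 0.14 without SH replicate 2 to 0.36 with TMM factors.

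Genes of the table with the most similar profile over the 6 libraries were named by Pearson's r of log2(FPKM + 0.1), as a description, since the libraries share the 2 groups by which the rows were chosen. For Bmpr2 these were Gm14305 (r = 0.99), LOC108168936 (0.99) and B230110G15Rik (0.98), and 35 of 581 other genes reached 0.9. For Skil they were Ifrd1 (0.98), a transcriptional coregulator, Smim18 (0.98) and, from the pathway itself, Fst (0.97), and 30 genes reached 0.9. For Klf10 they were Rbm3 (0.98), an RNA-binding protein induced by cold, Kcnip4 (0.97), a subunit of potassium channels, and the mitochondrial ATP6 (0.93), and 7 genes reached 0.9. Rbm3 had 15.6 FPKM in SH replicate 2 against 22.9 and 22.5 in SH replicates 1 and 3, the same low library as in Klf10. Over the 246 genes higher in EE, the median log2 deviation was also lowest in SH replicate 2. It was -0.14 there, against -0.098 and -0.083 in SH replicates 1 and 3.

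RNA came from the whole hippocampus, so more cells of a type and more RNA per cell cannot be told apart. Of 48 markers of 9 cell types, 8 had a row in the table, and inhibitory neurons, pericytes, oligodendrocytes and choroid plexus had none. Neurod6, a marker of excitatory hippocampal neurons (1 of 5 listed), was abundant and rose from 138 ± 5.5 to 155 ± 3.6 FPKM (SD, n = 3), or by 0.17 on the log2 scale (unadjusted p = 0.0083 from edgeR), in the same direction as the 3 genes. Endothelial cells, in which Bmpr2 is known to be strongly expressed, had 3 of 8 markers in the table. Cldn5 fell from 4.77 ± 0.19 to 3.52 ± 0.28 FPKM (SD, n = 3, unadjusted p = 0.0024 from edgeR), while Ptprb and Slco1a4 both had a log2 fold change of 0.28 and did not pass. The summed FPKM of the 3 was between 8.20 and 9.31 in SH and between 8.07 and 8.64 in EE. The astrocyte markers Gja1 and Aldh1l1 fell (2 of 5 listed), with a summed FPKM between 101 and 104 in SH and between 91.2 and 92.4 in EE. The microglial P2ry12 rose by 0.24 on the log2 scale (1 of 5 listed), from between 18.6 and 21.7 to between 23.5 and 24.8 FPKM. Hba-a1 of red blood cells (1 of 5 listed) had 64.7 ± 11.6 in SH and 83.1 ± 10.5 in EE (SD, n = 3). The part of these cells in the values of Bmpr2, Skil and Klf10 was not tested.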

How the data were processed

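Groups and replicate numbers were read from the labels. The 6 libraries of m6A immunoprecipitation in the series were not used. The authors mapped reads to mm10 with Hisat2, counted reads per gene with FeatureCounts and deposited raw counts of the differentially expressed genes only. FPKM, which the authors derived from count and gene length, was deposited beside the counts. The same deposited table holds the authors' edgeR p-value and log2 fold change, which were not used.

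The reads behind each FPKM column were obtained by dividing count by FPKM and RefSeq exon length (GRCm38), where 205 genes gave the same total within 0.001%. EE was compared with SH over all 584 genes with edgeR 4.0.16 (quasi-likelihood test, R 4.3.3), with these totals as library sizes, no scaling factor and no low-count filter; calls used an unadjusted p under 0.01. Standard errors are the log2 fold change over the square root of F. Scripts were tested on simulated counts. The members, the pathway list and the marker lists were chosen with earlier results of these data known. Named genes were the 3 members, each listed gene in the table and the 3 genes most like each member; marker genes and Gm35248 were named besides. The alternatives used limma 3.58.1, DESeq2 1.42.0, other scalings, pseudocounts (0.1, 1 and 0.01), a GC correction, the replicate number as a block, a filter on mean FPKM (at least 1) and each library left out. Replicates are biological repeats per the paper's figure legends. The p-values set the group difference against the spread between these libraries. The annotation gave exon GC content for 575 genes.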

Additional observations from a re-analysis of the deposited data

How the results depend on the processing

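The log2 fold change of Klf10 kept its direction under all 17 alternatives, and those of Bmpr2 and Skil under 16 of 17. The GC correction turned Bmpr2 to -0.14 and Skil to -0.012, left 39 table genes called higher and 95 lower, and left 1 gene of the pathway list higher and 2 lower. It moved the median log2 fold change of the table by 0.12 and DESeq2's own size factors moved it by 0.11. With TMM factors Bmpr2 was at 0.23 and called, and 229 table genes were called higher and 53 lower. With DESeq2's own size factors Bmpr2 was at 0.26 and Klf10 at 0.39, both called, and 233 table genes were higher and 29 lower. Both settings left 0 pathway genes called lower (for Smoc2, unadjusted p = 0.024 and 0.073). Bmpr2 was also called with DESeq2 on total reads (0.15) and with the likelihood ratio test (0.15). With library sizes from the table's counts Skil was at 0.16 and not called, 25 table genes were higher and 2 pathway genes higher.

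Left-out libraries gave 0.11 to 0.18 for Bmpr2, 0.18 to 0.25 for Skil and 0.14 to 0.38 for Klf10. They gave 52 to 98 table genes higher, against 112, with 54, 52 and 58 without SH replicate 2, EE replicate 1 and EE replicate 2. They gave 77 to 228 lower, against 237, with 111, 88 and 77 without the same 3 libraries. They gave 2 to 5 pathway genes higher and 0 to 2 lower. The 2 came without EE replicate 2 (higher) and without EE replicate 3 (lower), and the 0 without SH replicates 1 and 3 and EE replicates 1 and 2. The causes of these changes were not tested, and each of these fits also had fewer samples.

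Deviations of same-numbered libraries from their group means correlated at r = 0.20, -0.0045 and -0.062 for replicates 1, 2 and 3. Differently numbered libraries gave r between -0.25 and 0.27. With 3 libraries a group, these values cannot decide whether the numbers pair the samples. With the replicate block Bmpr2 was at 0.15, Skil at 0.22 and Klf10 at 0.29, with no call changed among the 3, and 136 table genes were called lower. In Klf10, the gene with the fewest reads of the 3, the EE libraries varied by 2.27%, below the largest counting error over the 6 libraries, 3.50%. The rows were selected for EE against SH, and no unselected gene was used here for scaling or GC content.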
